A study of Mus musculus with 52 samples.

Results

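The mammalian mitochondrial ribosome is assembled from RNA of the mitochondrial genome and from proteins that are encoded in the nucleus, translated in the cytosol and imported. It translates only the few proteins that the mitochondrial genome encodes, which are core subunits of the respiratory chain and the ATP synthase. Its large subunit forms peptide bonds and feeds the nascent chain to the inner membrane, and its small subunit binds the messenger and decodes it. The genes of these proteins, named Mrpl for the large and Mrps for the small subunit, were taken by symbol, as Mrpl or Mrps followed by a number, which gave 77 of the 24421 genes in the count tables (48 Mrpl and 29 Mrps). The symbol is older than the structures: Mrps18a and Mrps30 belong to the large subunit, and Mrps36 is now regarded as a component of the 2-oxoglutarate dehydrogenase complex. All 77 passed the filter on low counts, as 13994 genes did in all.

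RNA was sequenced from Cilia-APEX-IMCD3 cells, a mouse inner medullary collecting duct line, in 13 sets of 4 technical replicate libraries (52 libraries), each set being 1 clone in 1 state and called a clone here. All samples carry the treatment label CRISPR and were grown from single sorted cells, although the title of control clone AB lacks the prefix of the other non-ciliated clones. Mutants carried a homozygous missense allele of Wdr34 or of Wdr60, which encode the intermediate chains of dynein-2, the motor that returns cargo from the tip of the cilium. Controls were transfected with the editor and a guide vector without a target sequence. The ciliated group held 3 mutant clones (Wdr34_1, Wdr34_3 and Wdr60) and 4 controls named D8, H12, A4 and G7, and the non-ciliated group 2 mutant clones (Wdr34 and Wdr60) and 4 control clones (AB, 1, 2 and 3). Of the Wdr34 mutants, 1 allele came with a further heterozygous missense change, and the Wdr60 mutant with a heterozygous synonymous one. The Wdr34 allele with the further change was not in the non-ciliated set, the labels do not say which ciliated Wdr34 clone carries it, and each mutant is 1 clone. Because the alleles are missense, the level of Wdr34 (21.7 to 49.7 CPM, counts scaled to 1000000 per library) and of Wdr60 (20.4 to 31.0 CPM) is no check of genotype. Ciliation was induced by low serum, and the non-ciliated libraries were sequenced earlier. The labels name 1 growth medium, with 10% serum, for all samples. Cilia, serum and sequencing time therefore cannot be told apart in any comparison between states.

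Library totals ran from 14816218 to 28084979 counts, and every library was closest to the other libraries of its own clone. Library 1 of clone AB stood apart: its summed CPM over the 77 genes was 5643, against 3642 to 3770 in the other 3 libraries of that clone, and genes with short transcripts (under 1000 bases) lay a median of 0.56 log2 units above them. Library 4 of G7 (summed CPM 3665 against 2826 to 2977) and libraries 3 and 4 of the ciliated Wdr60 clone (3578 and 3407 against 2712 and 2646) leaned the same way. Library 1 of the non-ciliated Wdr60 clone differed from its other libraries gene by gene, with a chi-square per degree of freedom of 28.8 to 30.5 over the members. Its summed CPM (4246 against 4214 to 4334) did not stand apart, and it is not among the 4 libraries left out below. The collecting duct regulators Pax2 (80.1 to 303 CPM) and Pax8 (150 to 414 CPM) were present in all clones, but the water channel Aqp2 was at most 0.015 CPM. Clones G7 and 2 were low in epithelial keratins and adhesion genes: Krt7 was 3.80 and 3.78 CPM, and Epcam 13.5 and 2.90 CPM. Ciliated mutant Wdr34_3 also stood apart, with Krt7 at 62.6, Krt8 at 76.5 and Epcam at 287 CPM. The summed level of 15 epithelial markers was 1177 CPM in G7, 1020 CPM in clone 2 and 1586 CPM in Wdr34_3, against 3341 to 4943 CPM in the other clones. Of these markers 13 could be tested, and 0 passed between states in controls (edgeR, also 0 at an unadjusted p under 0.05), which does not show that they did not differ. Epcam, for one, was at 635.5, 743, 836 and 13.5 CPM in D8, H12, A4 and G7 and at 379, 184, 2.90 and 263 CPM in AB, 1, 2 and 3. Among leukocyte markers Ptprc was at most 0.899 and Cd68 at most 4.46 CPM, and among fibroblast markers Col1a1 was at most 5.28 CPM and Dcn was at 29.2 CPM in Wdr34_3 and under 1 CPM elsewhere. The part of these markers in the results was not tested beyond leaving out these clones. Counts were summed over the 4 libraries of a clone before any test, so n is the number of clones.

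The 77 genes are scattered over the genome, with none on chromosomes 12, 18 or X, and their start sites were compared for shared motifs. NRF-1, ETS-family factors and YY1 are known regulators of nuclear genes for mitochondrial proteins, and the E-box is the site of MYC. The 300 bases around the start site (250 before, 50 after) were taken from RefSeq (GRCm38.p6) for the 68 members that matched. The NRF-1 core GCGCATGC, on either strand, was in 8 of the 68 (11.8%), in 5.73% of the promoters of tested genes and in 3.05% of all 27025 promoters. The ETS-family site CCGGAAGT was in 12 of 68 (17.6%), against 8.72% and 4.31%. The YY1 core AAGATGGC was also in 12 of 68 (17.6%), against 5.04% and 3.19%, and the E-box CACGTG in 5 of 68 (7.35%), against 11.3% and 8.09%. Among the 24 matched members that were lower in ciliated control clones in the comparison between states, the counts were 4, 3, 4 and 1 (16.7%, 12.5%, 16.7% and 4.17%), and among the 44 not called 4, 9, 8 and 4 (9.09%, 20.5%, 18.2% and 9.09%). The letters of a motif are a description of the sequence and were not tested as binding sites. The upstream stretches of 150 bases, 5′ to 3′ on the gene's strand, are shown for the 8 genes that led the comparison between states, apart from Mrpl15, with any of the motifs in capitals. Of these 7, Mrps25, Mrpl12 and Mrps15 held none in this window. The stretches are those of Mrps22 (chr9:98601680-98601829, minus strand), Mrpl32 (chr13:14613038-14613187, minus strand), Mrpl22 (chr11:58171514-58171663, plus strand), Mrpl39 (chr16:84735245-84735394, minus strand), Mrps25 (chr6:92184024-92184173, minus strand), Mrpl12 (chr11:120484487-120484636, plus strand) and Mrps15 (chr4:126046778-126046927, plus strand). That of Mrpl22 lies before the start site in the promoter table, which is inside the span of the gene, and the outermost start of the gene lies further upstream.
Mrps22: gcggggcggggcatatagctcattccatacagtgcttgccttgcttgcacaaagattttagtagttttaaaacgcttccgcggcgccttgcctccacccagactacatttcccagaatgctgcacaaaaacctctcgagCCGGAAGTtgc
Mrpl32: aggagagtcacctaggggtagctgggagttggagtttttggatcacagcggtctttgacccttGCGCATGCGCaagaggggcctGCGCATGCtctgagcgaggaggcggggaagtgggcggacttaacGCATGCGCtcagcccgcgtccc
Mrpl22: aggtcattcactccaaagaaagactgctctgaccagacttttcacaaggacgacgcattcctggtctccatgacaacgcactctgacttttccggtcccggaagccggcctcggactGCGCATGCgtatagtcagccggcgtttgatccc
Mrpl39: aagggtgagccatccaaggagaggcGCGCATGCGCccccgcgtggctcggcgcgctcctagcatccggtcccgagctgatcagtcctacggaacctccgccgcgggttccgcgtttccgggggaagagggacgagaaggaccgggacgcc
Mrps25: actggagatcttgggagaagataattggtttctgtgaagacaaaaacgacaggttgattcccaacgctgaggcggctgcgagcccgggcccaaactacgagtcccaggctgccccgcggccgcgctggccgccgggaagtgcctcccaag
Mrpl12: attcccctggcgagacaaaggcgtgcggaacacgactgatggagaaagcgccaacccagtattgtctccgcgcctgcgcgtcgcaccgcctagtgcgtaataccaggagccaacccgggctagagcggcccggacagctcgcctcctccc
Mrps15: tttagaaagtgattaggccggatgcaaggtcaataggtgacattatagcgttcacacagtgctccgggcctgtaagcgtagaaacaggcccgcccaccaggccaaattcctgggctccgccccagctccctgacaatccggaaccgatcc

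Mitochondrial ribosomal protein genes were lower in ciliated than in non-ciliated control clones. Their summed level was 2739, 2882, 2963 and 3178 CPM in D8, H12, A4 and G7, and 4100, 4187, 3466 and 3627 CPM in AB, 1, 2 and 3. No ciliated control reached the lowest non-ciliated one, and the mean sum was lower (-23.5%). CPM are shares of a library, so a lower level in fewer cells and less RNA in each cell cannot be told apart. By gene, 26 of 77 (33.8%) fell and 0 rose at an adjusted p under 0.05 (edgeR's quasi-likelihood test, Benjamini-Hochberg adjusted over all genes tested), where 9.46% of all genes tested were lower and 8.98% higher. The median log2 fold change was -0.41 over the 77 genes and 0.02 over all genes tested, and 68 of the 77 values were below 0. In 26 members, not all of them the called ones, every ciliated control was below every non-ciliated one, which was the case for 11.5% of genes tested. Leaving out clone 1 brought the count that fell to 13 (648 of all genes lower, against 1324 with all clones), and leaving out clone 2 brought it to 33 (1578 of all genes). The control clones bear other names in each state and the labels do not tie them, while the methods speak of a single set of control clones, so the same clones may stand on both sides. The fit treated the clones of both states as independent, and its effect on the calls between states and on the interaction was not tested.

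**Figure D1:**
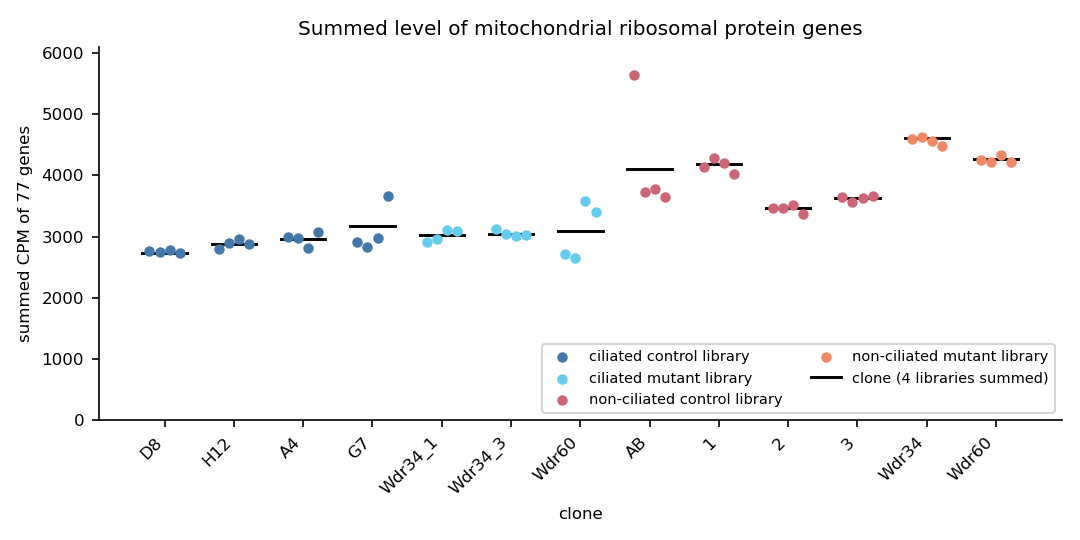
Summed CPM of the 77 mitochondrial ribosomal protein genes, with 1 point for each library, coloured by group, and a line at the value of the clone's 4 libraries summed. Ciliated control clones lie between 2739 and 3178 and non-ciliated control clones between 3466 and 4187, and library 1 of AB stands above all others at 5643.

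Genes of both subunits fell. Of genes named Mrpl, 19 of 48 fell (median log2 fold change -0.43), and of genes named Mrps, 7 of 29 (median -0.39). Of the 46 proteins with a counterpart in the bacterial ribosome, 18 fell (median -0.43), and of the 31 without one in the list, most of which are specific to the mitochondrial ribosome, 8 fell (median -0.35). The difference between these classes was not tested.

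Among small subunit genes, Mrps22 encodes a mitochondria-specific protein whose human counterpart is mutated in mitochondrial disease. It lies on chr9:98588730-98601679 (GRCm38). Its level was 19.1, 16.7, 19.7 and 18 CPM in ciliated controls and 45.8, 48.8, 29.7 and 42.5 CPM in non-ciliated ones, with no overlap. It fell by 1.18 on the log2 scale (SE 0.16, adjusted p = 0.00176), the largest change of the 77. Mrps25, another mitochondria-specific protein (chr6:92169512-92184023), stood at 19.9, 16.4, 20.2 and 27.3 CPM against 34.6, 51.9, 47.8 and 45.9 CPM. It fell by 1.11 (SE 0.24, adjusted p = 0.0103). Its value is uncertain in one respect: 3533 of its exon bases also lie in exons of the antisense gene Nr2c2, and the sources used here do not say whether counting used strand. Mrps15, which has a bacterial counterpart (chr4:126046928-126055536), was at 26.1, 34.2, 23.4 and 32.2 CPM in ciliated controls against 49.8, 59.4, 44.9 and 46.6 CPM. The 4 ciliated values were again all below the non-ciliated ones, and it fell by 0.79 (SE 0.17, adjusted p = 0.0105). Mrps27 (-0.62), Mrps5 (-0.55), Mrps16 (-0.50) and Mrps7 (-0.49) completed the small subunit genes that fell.

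Among the large subunit genes called, Mrpl15 (chr1:4773198-4785750) had the largest log2 fold change, with uneven values. It was at 39.9, 28.6, 37.7 and 24.4 CPM in ciliated controls and at 77.5, 79.5, 37.7 and 65.5 CPM in non-ciliated ones. Clone 2 thus lay within the ciliated range, and the fall was 0.99 (SE 0.23, adjusted p = 0.0144). Mrpl32, which is trimmed by an inner membrane protease on import before it enters the ribosome (chr13:14610301-14613037), was even within each state. Its values were 13.1, 11.6, 12.9 and 13.6 CPM against 25.3, 26.0, 21.4 and 24.3 CPM, with a fall of 0.92 (SE 0.12, adjusted p = 0.00190). Mrpl22 lines the exit tunnel (chr11:58170043-58179580), and its values were 15.2, 16.03, 18.6 and 16.3 CPM against 33.1, 33.4, 25.9 and 28.2 CPM, with a fall of 0.87 (SE 0.12, adjusted p = 0.00230).

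Mrpl39, a mitochondria-specific protein (chr16:84718281-84735244), was at 22.8, 23.7, 26.4 and 27.3 CPM in ciliated controls. In the non-ciliated ones it was at 44.2, 54.5, 37.6 and 43.4 CPM, and it fell by 0.84 (SE 0.13, adjusted p = 0.00273). Mrpl12, the stalk protein that recruits translation factors and also binds the mitochondrial RNA polymerase (chr11:120484637-120488754), is a highly expressed member. It stood at 65.4, 61.9, 80.2 and 95.3 CPM in ciliated controls and at 140, 163, 112 and 123 CPM in non-ciliated ones. All its ciliated values lay below the non-ciliated ones, and it fell by 0.83 (SE 0.17, adjusted p = 0.00768). Mrpl11 (-0.67) and Mrpl10 (-0.43), which form the base on which Mrpl12 sits, also fell. The remaining 12 large subunit genes that fell had log2 fold changes from -0.41 (Mrpl3) to -0.78 (Mrpl34 and Mrpl42). Among them Mrpl16 was at -0.76, Mrpl1 at -0.66, Mrpl13 at -0.62, Mrpl20 and Mrpl40 at -0.55 each, Mrpl21 at -0.54, Mrpl30 and Mrpl46 at -0.53 each and Mrpl45 at -0.42.

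The other 51 genes did not pass the test. Their 9 positive values ran from 0.02 (Mrps18a) to 0.35 (Mrpl14, adjusted p = 0.119). Mrpl49 and Mrpl43, which are among the most abundant members, were at 0.13 and 0.18. Both share exon bases with an antisense gene (Syvn1 and Twnk), as do Mrpl12 (200 bases, Gm16755), Mrpl13 (330 bases, Mtbp) and Mrpl24 (594 bases, Rrnad1), and Mrpl33 shares 107 bases with Gm43809 on its own strand, so reads of these genes are uncertain to that extent.

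**Figure D2:**
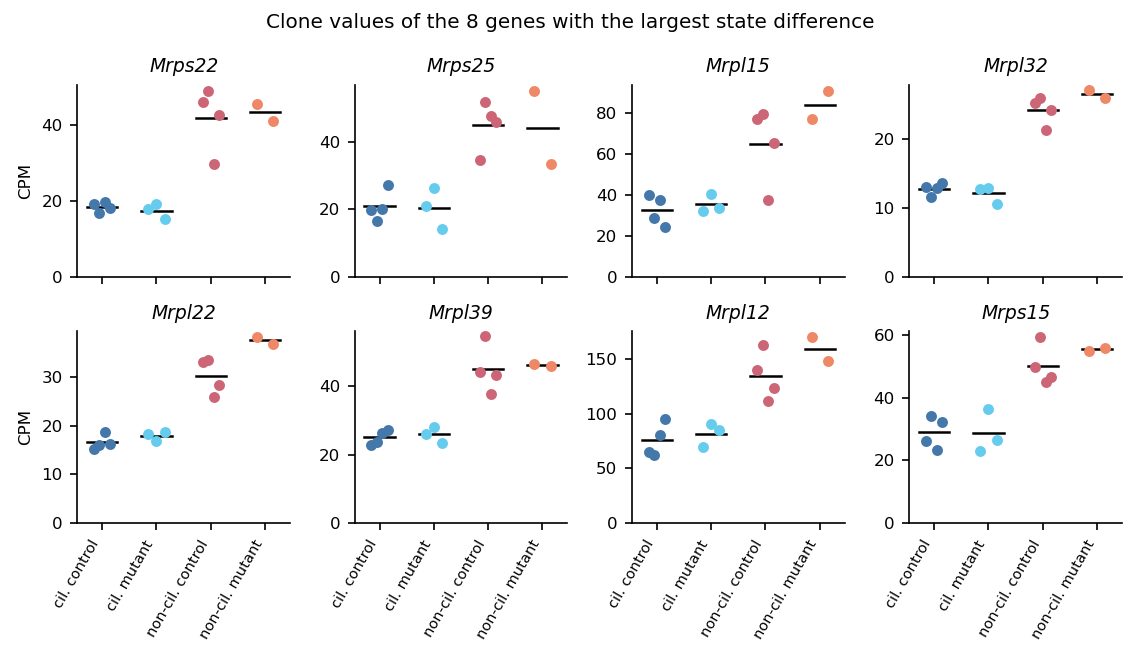
CPM (axis from 0) of the 8 genes that led the comparison between states in controls, with 1 point for each clone in the 4 groups and a line at the group mean. Ciliated controls lie below non-ciliated controls without overlap in Mrps22, Mrps25, Mrps15, Mrpl32, Mrpl22, Mrpl39 and Mrpl12, and clone 2 overlaps in Mrpl15.

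The mutant clones gave the same comparison in clones that the control comparison did not use. The methods speak of 3 mutant clones in all, so the Wdr60 mutant and 1 Wdr34 mutant stand on both sides here. The labels do not say which ciliated Wdr34 clone is the non-ciliated one. In median levels by chromosome, non-ciliated Wdr34 gave r = 0.869 with Wdr34_1 and 0.0733 with Wdr34_3. The fit again treated all of these as independent, and the effect of that was not tested. Their summed level was 3027, 3046 and 3091 CPM in ciliated Wdr34_1, Wdr34_3 and Wdr60, and 4609 and 4263 CPM in non-ciliated Wdr34 and Wdr60, a mean difference of -31.1%. In the same fit, 27 of 77 (35.1%) fell and 0 rose, where 7.53% of all genes tested were lower and 5.32% higher. The median log2 fold change was -0.53 over the members and 0.04 over all genes tested, and 72 of the 77 values were below 0. Ciliated and non-ciliated mutants did not overlap in 57 members with the ciliated ones lower, against 26.8% of genes tested, in a comparison of 3 clones with 2. This count rests on those clones: without non-ciliated Wdr34 0 of the 77 were called (edgeR, 33 lower at an unadjusted p under 0.05). Without non-ciliated Wdr60 9 were, without Wdr34_1 10, without ciliated Wdr60 18 and without Wdr34_3 20. The counts lower among all genes fell alongside, from 1054 to 28, 412, 475, 623 and 747 in the same order, while the median over members stayed between -0.61 and -0.49.

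Of the 77 genes, 24 were called lower in both comparisons, as were 878 of all 13994 genes tested (6.27%). Mrpl20 and Mrpl45 were called in controls only, and Mrpl36, Mrps17 and Mrps24 in mutants only, which does not show that they differ between genotypes. Across the 77 genes the log2 fold changes of both comparisons gave Pearson's r = 0.92 and Spearman's rho = 0.91, against r = 0.66 across all genes tested, values that are across genes and carry no test. Signs were shared by 73 members (94.8%) and by 84.9% of all genes tested. In 25 members the ciliated clones were below the non-ciliated ones in both genotypes, as in 10.1% of all genes tested.

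In mutants Mrps22 was at 17.7, 19.03 and 15.1 CPM in ciliated clones and at 45.4 and 41.0 CPM in non-ciliated ones, a fall of 1.32 (SE 0.20, adjusted p = 0.00516). Mrpl15 was at 32.1, 40.3 and 33.7 CPM against 77.1 and 90.9 CPM, with no overlap here, and fell by 1.25 (SE 0.29, adjusted p = 0.0211). Mrpl32 was at 12.8, 12.9 and 10.6 CPM against 27.2 and 26.0 CPM and fell by 1.14 (SE 0.16, adjusted p = 0.00381). In all 3 every ciliated mutant was below both non-ciliated ones. Mrps25 was at 21.1, 26.4 and 14.1 CPM against 55.0 and 33.3 CPM and fell by 1.11 (SE 0.30, adjusted p = 0.0349), so the non-ciliated Wdr60 clone came nearest to the ciliated ones. Mrpl22 was at 18.3, 16.9 and 18.7 CPM against 38.2 and 36.7 CPM and fell by 1.06 (SE 0.16, adjusted p = 0.00516). Mrpl12 was at 70.0, 90.5 and 85.0 CPM against 170 and 148 CPM and fell by 0.96 (SE 0.21, adjusted p = 0.0157). Neither gene had overlapping groups. Mrps15 was at 23.01, 36.5 and 26.5 CPM against 55.0 and 56.0 CPM and fell by 0.95 (SE 0.22, adjusted p = 0.0187). Mrpl39 was at 26.2, 28.2 and 23.5 CPM against 46.5 and 46.0 CPM and fell by 0.83 (SE 0.16, adjusted p = 0.0117). Of the 8 genes, all were called in both genotypes, and Mrpl15 was the only one with overlapping clones in either.

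**Figure D3:**
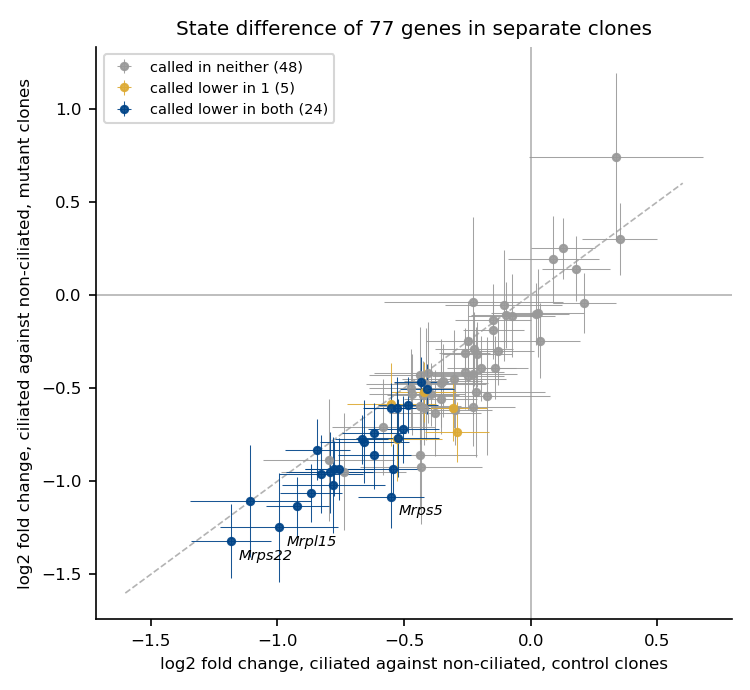
Log2 fold change of ciliated against non-ciliated clones in controls (horizontal axis) and in mutants (vertical axis), with 1 point for each of the 77 genes, bars of 1 SE and a dashed line of equality. Of these, 73 share a sign, 24 were called lower in both genotypes, and Mrps22 lies farthest out at -1.18 and -1.32.

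Transcript length moved with some libraries, so the genes were also read beside others of similar length. Members are short, with a longest transcript of median 1288 bases against 2976 over all genes tested with a length. Among all genes the median log2 fold change in controls was 0.03 for transcripts under 1000 bases, of which 8.69% were lower and 7.24% higher. In mutants it was -0.02 for such transcripts, of which 9.07% were lower and 2.41% higher, and 0.13 for those over 4000 bases, of which 5.41% were lower and 6.34% higher. Among members, 24.0% of 25 genes under 1000 bases, 39.5% of 43 between 1000 and 4000 bases and 33.3% of 9 above 4000 bases were lower in controls, where 8.69%, 10.4% and 8.07% of all genes of these lengths were. In mutants the members' shares were 28%, 37.2% and 44.4%, where those of all genes were 9.07%, 8.63% and 5.41%. The following settings were chosen after seeing the data. With a length adjustment, 23 were lower in controls and 23 in mutants (1310 and 1011 of all genes). Without the 4 libraries that stood apart 23 were lower in controls and 28 in mutants (1169 and 1013 of all genes). Without clones G7 and 2 the counts were 36 and 37, and those over all genes 1535 and 1572, against 1324 and 1054 with all clones.

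Companion lists of the same machinery were read beside the shares of all genes tested in controls, 9.46% lower and 8.98% higher, and differences between lists were not tested. Translation factors of the mitochondrion fell in 7 of 11 tested genes and rose in 0 in controls (median -0.65), among them Gfm2 (-1.07), which splits ribosomes after termination, Guf1 (-1.06), a translational GTPase, Gfm1 (-0.85), the elongation factor that moves the ribosome along the messenger, and Mrrf (-0.81), the recycling factor. Proteins of the mitochondrial ribosome outside the naming pattern fell in 4 of 6, with Ptcd3 at -0.98 and a list median of -0.47. Mitochondrial aminoacyl-tRNA synthetases fell in 3 of 17 (median -0.42). Of factors for ribosome assembly and ribosomal RNA, 2 of 22 fell (median -0.16): Noa1 (-1.25) and Fastkd2 (-0.87).

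Nuclear-encoded subunits of oxidative phosphorylation, the complexes that the products of mitochondrial translation join, had a median of 0.01. Of 76 tested, 2 fell (Ndufa10, -0.69, and Uqcrc2, -0.40) and 2 rose (Ndufa6, 0.68, and Atp5s, 0.75). Transcription of mitochondrial DNA and its nuclear regulators gave 0 calls of 13 by edgeR (1 higher at an unadjusted p under 0.05) and a median of 0.02. Cytosolic ribosomal proteins, by contrast, had a median of -0.45, with 19 of 79 lower, such as Rpl35 (-1.98), Rpl27 (-1.47) and Rps2 (-1.37), and 1 higher. Of 18 proliferation markers 5 fell, among them the mitotic kinases Bub1 (-0.94) and Plk1 (-0.66), and 1 rose, the replication helicase subunit Mcm6 (0.50). The part of proliferation in the values of the ribosomal genes was not tested. In mutants, where 7.53% of all genes tested were lower, the counts lower were 5 of 11 for translation factors, 3 of 6 for proteins outside the naming pattern, 32 of 79 for cytosolic ribosomal proteins (median -0.80), 3 of 17 for aminoacyl-tRNA synthetases (median -0.61), 1 of 22 for assembly factors (median -0.28), 3 of 76 for oxidative phosphorylation (median -0.07), 3 of 18 for proliferation markers and 0 of 13 for transcription and its regulators (edgeR, also 0 at an unadjusted p under 0.05).

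**Figure D4:**
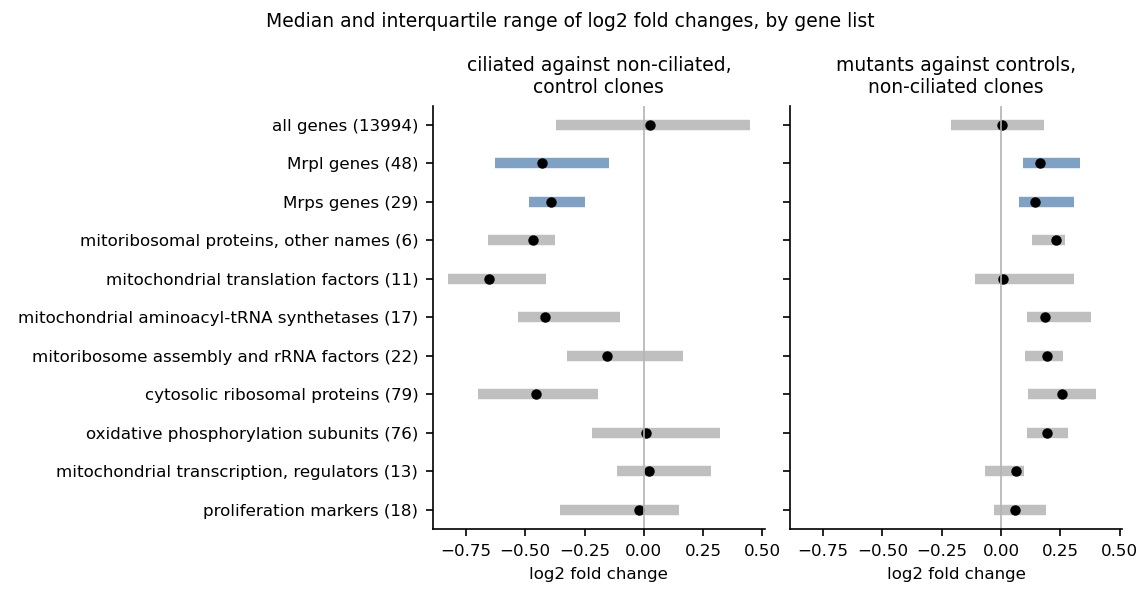
Median (point) and interquartile range (bar) of the log2 fold changes in each gene list, for ciliated against non-ciliated controls (left) and for mutants against controls in non-ciliated clones (right), with the number of genes tested in parentheses. On the left the medians are -0.43 for Mrpl and -0.39 for Mrps genes, -0.65 for mitochondrial translation factors, -0.45 for cytosolic ribosomal proteins and 0.01 for oxidative phosphorylation, and on the right 0.16, 0.14, 0.01, 0.26 and 0.19.

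Mutants were compared with controls within each state, which the state difference does not touch. In ciliated clones 0 of the 77 genes passed (edgeR, at an unadjusted p under 0.05 also 0), and 0% of all genes tested did in either direction. The median log2 fold change was 0.06 (all genes 0.00), with 54 values above 0 (the median was 0.01 without clone D8, 0.02 without the 4 libraries that stood apart, 0.02 with the length adjustment, 0.04 without Wdr34_3 and 0.11 without clones G7 and 2), and the mean summed level was 3.88% higher in mutants. In 3 members every mutant was above every control, against 1.29% of genes tested. Mrps14, a small subunit protein with a bacterial counterpart, was at 33.7, 35.2 and 34.9 CPM in mutants and at 27.0, 29.6, 30.7 and 24.2 CPM in controls. Its log2 fold change was 0.31 (SE 0.15), with a two-sided exact permutation p of 0.0571. Mrpl44, a mitochondria-specific protein with a ribonuclease III-like fold, was at 25.9, 22.2 and 23.7 CPM against 19.01, 21.5, 20.9 and 17.7 CPM, a log2 fold change of 0.28 (SE 0.17). Mrpl54, also mitochondria-specific, was at 41.9, 45.7 and 46.9 CPM against 32.8, 39.2, 39.0 and 41.9 CPM, a log2 fold change of 0.23 (SE 0.15). In Mrpl54 the groups all but touch, with mutant Wdr34_1 at 41.86 CPM and control G7 at 41.85 CPM. The separation also rests on libraries 3 and 4 of Wdr60, at 73.5 and 61.5 CPM against 29.3 and 20.2 CPM in its other libraries. Library 4 of G7 was likewise raised, at 63.1 CPM against 23.9 to 36.2 CPM. Without the 4 libraries that stood apart the log2 fold change was 0.09. Mrpl44 and Mrps14 lie on chromosome 1, where all genes had a median deviation of -0.43 in control G7, the lowest ciliated clone for both genes, and their r with that median over the 13 clones was 0.68 and 0.64. When the 12 mutant and 16 control libraries were treated as samples in edgeR, 3 members were called higher (Mrpl44, Mrps14 and Mrps18c), where 3.34% of all genes tested were. These libraries are technical replicates of 7 clones, and with the clone as a random block 0 members were called (limma voom).

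In non-ciliated clones most members had higher values in mutants, but again 0 of 77 passed the test over clones, as did 0% of all genes tested (edgeR). At an unadjusted p under 0.05, 12 members were higher and 0 lower, against 287 and 229 of 13994 genes. The median log2 fold change was 0.15 (all genes 0.00), 68 values were above 0, and the mean summed level was 15.4% higher. In 25 of 77 members both mutants were above all 4 controls and in 0 both were below, where 7.76% of genes tested had both above. Single clones also differed: against the mean of the other 3 controls, the median over the 77 genes was 0.18 in clone 1, 0.11 in AB, -0.11 in clone 3 and -0.18 in clone 2, beside 0.25 in mutant Wdr34 and 0.16 in mutant Wdr60 against all 4. The value of AB includes its library 1, with a summed CPM of 5643 against 3642 to 3770 in its other libraries. Cytosolic ribosomal proteins (median 0.26) and oxidative phosphorylation subunits (0.19) were also above 0 here, with 0 calls by edgeR and 12 of 79 and 6 of 76 higher at an unadjusted p under 0.05. By transcript length, the medians under 1000 bases were 0.13 over all genes and 0.25 over members, between 1000 and 4000 bases 0.03 and 0.14, and over 4000 bases -0.06 and 0.17. With the length adjustment, chosen after seeing the data, the median over the members was 0.09, and without library 1 of AB it was 0.18.

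The non-ciliated members named by their size of change were Mrps28, Mrpl33, Mrps14 and Mrps18c, all of which have bacterial counterparts. Mrps28 was at 36.9 and 32.8 CPM in mutants against 31.2, 20.9, 24.2 and 14.1 CPM in AB, 1, 2 and 3, a log2 fold change of 0.63 (SE 0.27). Mrpl33 was at 86.1 and 111 CPM against 83.6, 68.4, 48.2 and 76.4 CPM, with 0.51 (SE 0.29). In both genes AB was raised by its library 1, which was at 130.5 CPM in Mrpl33 against 67.9 to 75.4 CPM in its other libraries, and at 50.4 CPM in Mrps28 against 23.6 to 29.4 CPM. Mrps14 was at 45.3 and 39.9 CPM against 34.1, 36.2, 24.3 and 27.4 CPM, with 0.48 (SE 0.17). Library 1 of the Wdr60 clone was at 20.4 CPM in Mrps14, against 43.8 to 49.5 CPM in its other libraries. Mrps18c was at 51.99 and 61.2 CPM against 47.3, 38.1, 42.6 and 36.4 CPM, with 0.46 (SE 0.18). AB was raised by its library 1 here too, at 52.6 CPM in Mrps14 against 28.3 to 30.9 CPM in its other libraries. In Mrps18c that library was at 67.9 CPM against 41.3 to 42.5 CPM. None of the 4 passed, and with 2 clones against 4 an exact permutation test cannot go below 0.0667. With libraries as samples 13 members were called higher, where 4.74% of all genes tested were. These were Mrpl9, Mrpl28, Mrpl30, Mrpl33, Mrpl36, Mrpl44, Mrps5, Mrps14, Mrps17, Mrps18a, Mrps18c, Mrps24 and Mrps28. The deviations of these 4 genes over the 13 clones also followed the median of all genes on their chromosome, with r of 0.84 for Mrps28 (chromosome 3), 0.84 for Mrpl33 and 0.74 for Mrps18c (chromosome 5) and 0.64 for Mrps14 (chromosome 1). All genes on chromosome 5 had a median deviation of 0.25 in both Wdr60 clones, and those on chromosome 1 of -0.50 in clone 2. The part of these chromosome-wide levels in the values was not tested. Technical replicates of a clone are not separate cultures, and that count measures the spread between libraries. With the clone as a random block it was 0 (limma voom).

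Whether the mutant effect differed between states was tested as an interaction, which 0 of 77 members and 0% of all genes tested passed (edgeR). The median was -0.13 over the members and -0.01 over all genes, and 67 of 77 values were below 0. The median was -0.06 without TMM factors, -0.04 without clones G7 and 2, and -0.21 without the 4 libraries that stood apart. At an unadjusted p under 0.05 there were 2, both lower, Mrps5 (-0.53, SE 0.21) and Mrpl21 (-0.39, SE 0.17), beside 98 higher and 38 lower of all 13994 genes. In Mrpl21 both non-ciliated mutants (60.7 and 62.1 CPM) were above the 4 controls (41.6 to 52.5 CPM), and the ciliated mutants (30.0 to 33.9 CPM) overlapped the ciliated controls (30.8 to 36.2 CPM). Mrps5 was at 53.0 and 47.2 CPM in non-ciliated mutants against 39.7, 39.9, 34.1 and 33.7 CPM, and at 25.3, 18.8 and 26.9 CPM in ciliated mutants against 24.1, 26.8, 25.6 and 24.0 CPM. The non-ciliated groups were apart and the ciliated groups overlapped. Mrps5, a small subunit protein whose bacterial counterpart bears on the accuracy of decoding, had a mutant log2 fold change of 0.44 in non-ciliated and of -0.09 in ciliated clones, and was the only member called with libraries as samples (adjusted p = 0.0151), where 188 of 12544 genes were higher and 49 lower. With the clone as a random block it was not called. Mrps5 lies on chromosome 2, where all genes had a median deviation of -0.30 in Wdr34_3, the ciliated mutant at 18.8 CPM. Its r with that median over the 13 clones was 0.59, and the part of this chromosome-wide level was not tested. In both states 51 of 77 mutant values were above 0, and 6 were below 0 in both. No share over all genes stands beside these counts, and mutant clones, and perhaps control clones, are shared between the states. They therefore show no shared mutant effect by themselves.

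Levels between genes were compared per kilobase of exon (CPM per kb, mean over the 13 clones ± SD over clones). They ran from 1.85 to 134 with a median of 28.2. The proteins enter the ribosome in equal numbers, apart from the stalk protein Mrpl12 and from Mrps36, now regarded as part of another complex. The highest were Mrpl33 (134 ± 45.4) and Mrps21 (106 ± 30.4), both small proteins of bacterial descent, Mrpl13 (87.3 ± 25.1) and Mrpl12 (82.1 ± 28.5). This order is over all clones and depends on state. In ciliated controls Mrpl14, Mrpl43, Mrpl28 and Mrpl49 were above both Mrpl13 and Mrpl12 per kb. Mrpl2, Mrpl18, Mrpl54 and, narrowly, Mrpl42 were also above Mrpl12 there. Neighbours among the 4 highest lay within their spread of each other. The lowest over all clones were Mrps36 (5.31 ± 1.23), Mrps25 (5.24 ± 2.33), Mrpl48 (2.68 ± 0.295) and Mrpl23 (1.85 ± 0.595). This order depends on state too. In non-ciliated controls Mrpl17 and Mrpl57 were below Mrps25 per kb, and in ciliated controls Mrpl32 and Mrpl17 were below Mrps36. Mrpl23 had only 5 to 107 counts in a library. For Mrpl23, Mrpl48 and Mrps36 the annotation names pseudogenes, 1, 1 and 3, which could share reads with them. Over the 77 genes, the state log2 fold change in controls had a Spearman correlation of 0.20 with the level per kb and of -0.27 with exon length (-0.08 and 0.03 over all genes), given as a description.

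Members differed in how far control clones of 1 state spread. The widest were Mrpl24, Mrps21, Mrpl23, Mrpl47 and Mrpl15, and the tightest Mrpl32, Mrps5 and Mrpl36. Mrpl24, whose bacterial counterpart starts assembly of the large subunit, ran from 25.8 to 90.1 CPM over the 13 clones. Mrpl24, Mrps21 and Mrpl47 lie on chromosome 3, as do Mrpl9 and Mrps28. On that chromosome all 691 genes tested had a median log2 deviation from the mean of all clones of the state of -0.34 in D8, -0.42 in clone 3, 0.26 in AB and 0.31 in non-ciliated Wdr34. The 5 members had -0.68, -0.85, 0.34 and 0.54 in the same clones. Over the 13 clones the members' median and that of all genes on the chromosome had r = 0.93 on chromosome 3. The value was 0.90 on chromosome 5, 0.86 on chromosome 6 and 0.82 on chromosome 1. These were the highest, against 0.00178 on chromosome 11, which holds 10 members, and -0.175 on chromosome 7, the lowest. The genes share libraries and no test applies.

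Mrpl15 and 4 further members on chromosome 1 were low in clone 2 (median -0.61) and G7 (-0.27), where all genes of chromosome 1 had -0.50 and -0.43. Among the 77 genes, 29 had a correlation above 0.5 with their chromosome's median and 14 were below 0, with a median of 0.39. The same was not computed over all genes, so these counts do not set the members apart from other genes. The values of Mrpl15, Mrps25 (chromosome 6) and Mrps28 in single clones thus moved with many neighbours, with r of 0.87, 0.86 and 0.84, and copy number was not measured.

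**Figure D5:**
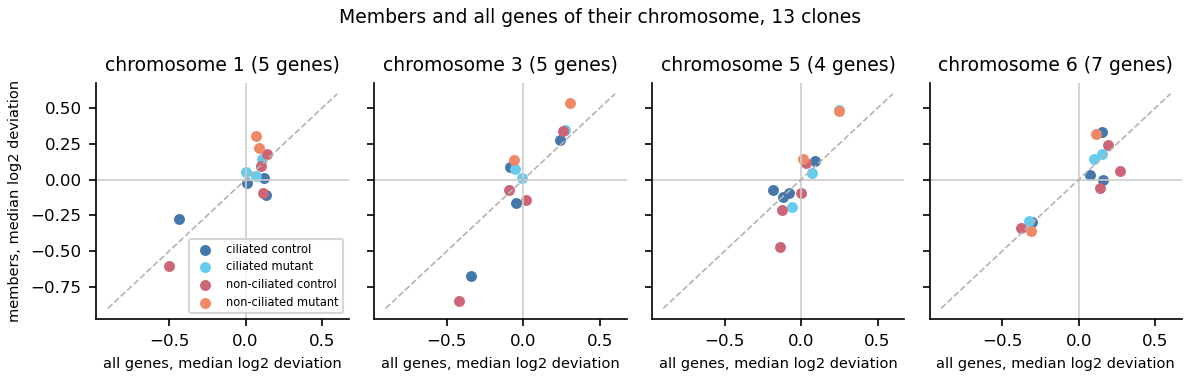
Median log2 deviation from the state mean of all genes on a chromosome (horizontal axis) and of the members on it (vertical axis), with 1 point for each of the 13 clones on chromosomes 1, 3, 5 and 6, coloured by group, and a dashed line of equality. On chromosome 3 the 5 members follow the 691 genes, with clone 3 lowest at -0.85 and non-ciliated Wdr34 highest at 0.54.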

How the data were processed

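Libraries were made with the SMARTER mRNA-seq kit. The authors aligned the reads to the mouse genome (GRCm38/mm10) and deposited 1 table of raw read counts per gene and library, made with featureCounts in R 3.4.4. They tested counts with DESeq2 1.18.1. Strand setting and treatment of multi-mapping reads are not given in the sources used here. The counts are whole numbers with no normalization, 14816218 to 28084979 per library.

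Here the 4 technical replicate libraries of each clone were summed, because they do not measure the spread between clones. The 13 clone sums in 4 groups were fitted together with edgeR 4.0.16 (quasi-likelihood test, TMM factors, filterByExpr, R 4.3.3), with 9 residual degrees of freedom. P-values were adjusted by Benjamini-Hochberg over the 13994 genes tested, and calls were made at an adjusted p under 0.05. Taking the 52 libraries as samples was an alternative. CPM were computed with the TMM factors. No label names separate cultures of a clone, so p-values measure the spread between these clones. Exact permutation tests were two-sided over clones. Exon lengths, coordinates and overlaps came from the GRCm38 annotation and promoters from RefSeq GRCm38.p6.

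Members were named in the text if they were the 8 largest called in each direction between states in controls, the 4 largest non-overlapping in each mutant comparison, the 4 highest and lowest per kb, or the 5 widest and 3 tightest over control clones. Other members named were chosen after their values were seen. The members and the lists were chosen with earlier results of these data known. The edgeR fit was also run on simulated counts with clones drawn independently. That run could not check the effect of clones shared between states or of chromosome-wide levels. Alternatives covered scaling, filters, thresholds, tools, samples in the fit, libraries as samples, and leaving out each clone or library number.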

Additional observations from a re-analysis of the deposited data

Results flagged for a closer look

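The summed level of the 77 mitochondrial ribosomal protein genes in the 4 libraries of non-ciliated control clone AB ran from 3642 to 5643 CPM. Library 1 (5643) lay far from the next (3770): the gap was 0.936 of the whole range, above Dixon's critical value for 4 values. Of 65 sets of 4 values examined (52 of clones and 13 of libraries) it was the only one past the limit, and chance passes about 1 in 20. In this library the rank correlation of a gene's deviation with transcript length was -0.585, and genes above 4000 bases lay a median of -0.43 log2 units from the other libraries of the clone. Without it, 24 members instead of 26 were lower in ciliated controls, all 24 among the 26, and 1315 of all genes instead of 1324.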

How the results depend on the processing

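No named value past the threshold and no median over the members changed sign, while small values did: of the 77 genes, 72 were below 0 in mutants and 65 without TMM, and 68 in controls and 71 without G7 and 2. In controls (26 lower, 0 higher) the counts were 58 lower and 2 higher with libraries as samples (Mrpl14 and Mrpl43 higher), where 3768 of 12544 genes were lower and 3992 higher, 2 lower (357 of all genes) at a log2 fold change of at least 1, and 11 (463) at an adjusted p under 0.01. An additive model, whose state term uses mutants too, gave 50 lower and 1 higher (Mrpl14), with 2726 and 2657 over all genes. In mutants (27 lower, 0 higher) they were 61 and 2 with libraries (Mrpl23 and Mrpl49 higher). Of all 12544 genes, 3639 were lower and 3933 higher with libraries. In mutants 7 members (446 of all genes) were lower at that fold and 8 (178) at that p. DESeq2 gave 34 and 37 lower (1795 and 1606 of all genes), limma voom with the clone as a random block 29 and 28 (1762 and 1458). Mutants against controls gave 3 (ciliated) and 13 (non-ciliated) higher and the interaction 1 lower with libraries, and 0 with DESeq2 and voom. Without TMM the median in mutants between states was -0.40 instead of -0.53, where that of all genes became 0.18, so both moved up.

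Replicate numbers do not pair libraries: the median correlation of same-numbered libraries was 0.0524 (-0.748 to 0.917), and 17 of 52 were closest to their own number. With the replicate number as a block the counts were 58 lower and 2 higher (controls) and 60 and 2 (mutants between states). Over all genes they were 3719 and 3906, and 3603 and 3855. Mutants against controls gave 1 and 12 higher (333 and 510 of all genes), and the interaction 1 lower (38 of all genes).

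Leaving out 1 clone gave 13 to 33 lower in controls (median -0.46 to -0.35) and 0 to 20 in mutants (-0.61 to -0.49). Where 1 non-ciliated mutant was left, it was assumed to vary like the other groups. Medians were 0.00879 to 0.108 for ciliated mutants, 0.13 to 0.24 for non-ciliated mutants and -0.20 to -0.08 for the interaction, with 0 calls. Leaving out 1 library number gave 24 to 28 lower in controls (-0.44 to -0.37), with 1254 to 1344 of all genes lower. In mutants it gave 23 to 26 lower (-0.59 to -0.51), with 811 to 1083 of all genes lower. The other medians, in the order above, were 0.02 to 0.08, 0.14 to 0.18 and -0.17 to -0.10. The cause of these shifts was not tested. Depth limits Mrpl23, at 5 to 107 counts a library.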

Other observations

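The median deviation of all genes on each of 19 chromosomes was also compared between clones of different states. Non-ciliated clones resembled particular ciliated ones: the correlation over the 19 chromosomes was 0.908 for D8 and 3, 0.911 for G7 and 2, 0.776 for H12 and AB, 0.59 for A4 and 1, 0.869 for Wdr34_1 and Wdr34, and 0.917 for both Wdr60 clones. Ciliated mutant Wdr60 and control AB also gave 0.62, above the value for A4 and 1. The remaining pairs ran from -0.694 (H12 and 3) to 0.376 (H12 and non-ciliated Wdr60). The labels do not tie the control clones of one state to those of the other, and these values were used in no comparison. Technical libraries of a clone varied beyond counting error in the members, with a chi-square per degree of freedom of median 3.63 over pairs of libraries of 1 clone (1.34 to 116).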
